A study of Mus musculus with 18 samples.

Results

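The RAS-ERK, JNK and p38 mitogen-activated protein kinase (MAPK) cascades were followed here through 36 listed components in lung tumors and control lung of the B6C3F1/N mouse, an inbred-strain hybrid common in carcinogenicity testing. A component was measured where a probe set of the Affymetrix mouse array carried its symbol and no other, and the probe set with the highest mean stood for the gene. This gave 32 of the 36, out of 18193 genes measured in all. The other listed components (Hras, Mapk3, Rps6ka1 and Map2k7) were skipped and are not analysed here. The RAS-ERK arm held 14 of the 32, the JNK arm 5 and the p38 arm 8, and 5 belonged to JNK and p38 alike.

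Of the 18 arrays, 6 carried RNA of lung tumors from mice that had inhaled antimony trioxide (treated tumors), 6 of tumors that had arisen spontaneously, and 6 of lung from vehicle controls (control lung). Per the labels the mice were 5 to 6 weeks old at the start and breathed the compound, whole body, on 5 days of each week, for 6 hours and 12 minutes daily and for as long as 105 weeks. Air levels were 3, 10 and 30 mg/m3, with 0 for the controls. The labels do not give the animal, sex or exposure level behind an array, so the treated group may mix levels, and the p-values below rest on the spread between arrays, which may be technical. Tumors were cut out of the lung and frozen, and every sample is a mixture of cell types, in which fewer cells of a type and less RNA per cell cannot be told apart.

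The arrays of control lung 5, spontaneous tumor 5 and spontaneous tumor 6 stood apart and were left out. Their median correlation with the other arrays was 0.30 to 0.48, against 0.92 to 0.97 for the 15 kept (6 treated tumors, 4 spontaneous tumors and 5 control lungs). On the same 3 arrays 25 to 29 of the 32 components read outside the range of the other 15. Among the 15, the hybridization control bioB read 10.4 to 10.8 on treated tumor, 10.3 to 10.6 on spontaneous tumor and 10.8 to 11.4 on control arrays, so tumor and control arrays differed in a technical measure. The log2 difference between the 3' and 5' Gapdh probe sets, a sign of RNA quality, was 1.09 to 1.97 (median 1.23), 1.11 to 1.40 and 1.84 to 2.21 in the same order. The same difference for beta-actin was -0.33 to -0.17, -0.38 to -0.23 and -0.24 to -0.17, and these ranges overlapped. The part of these measures in the results was not tested.

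The tissue labels were checked against marker lists. The alveolar type 2 cell list, with the surfactant genes, had a mean log2 level of 12.9 to 13.1 on treated tumor, 13.1 to 13.3 on spontaneous tumor and 11.9 to 12.6 on control arrays, and 7 of its 9 measured genes rose in each tumor group. Endothelial markers averaged 8.09 to 9.29, 8.31 to 9.26 and 11.2 to 11.9 in the same order, with 10 of 10 lower in treated and 9 of 10 lower in spontaneous tumors. Ciliated cell markers fell in 8 of 8 genes in each tumor group, to 5.59 to 6.33 in treated and 5.56 to 6.62 in spontaneous tumors, against 8.96 to 10.5 in control lung. Macrophage markers read 9.83 to 11.2 on treated tumor and 9.84 to 11.1 on spontaneous tumor arrays. On the 5 control arrays they read 7.88, 10.3, 8.34, 7.87 and 11.0, so control lung 2 and 6 lay within the tumor range. Markers of several cell types thus moved with the comparison of tumor with lung, and their part in the results below was not tested.

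In a MAPK cascade, a kinase at the top phosphorylates a middle kinase, which phosphorylates the MAP kinase itself, and the MAP kinase then acts on further kinases and on transcription factors. Growth factor receptors feed the ERK arm through adaptors, exchange factors and the RAS switch, and activating lesions in this arm are common in mouse lung tumors. JNK and p38 answer mainly to stress and cytokines, and dual-specificity phosphatases (DUSPs) switch MAP kinases off by removing the activating phosphates. Control of these proteins is largely by phosphorylation and GTP binding, which the arrays do not measure.

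Against control lung, 13 of the 32 components rose and 3 fell in treated tumors, at an adjusted p under 0.05 in limma with Benjamini-Hochberg adjustment over all genes. In the same comparison 38.7% of all genes were called, 23.7% higher and 15% lower. In spontaneous tumors 8 rose and 3 fell, where 33.0% of all genes were called, 20.1% higher and 12.9% lower. The median log2 fold change of the components was 0.24 in treated and 0.15 in spontaneous tumors, and that of all genes was 0.09 and 0.12. Tumor and control arrays did not overlap for 10 of the 32 components in the comparison of treated tumors and for 9 in that of spontaneous tumors, beside 24.4% and 29.2% of all genes. With all 18 arrays kept, limma called 0 components against control lung in either tumor group (4 in treated and 3 in spontaneous tumors had an unadjusted p under 0.05). Of all 18193 genes, 3408 in treated and 2502 in spontaneous tumors had an unadjusted p under 0.05 in that fit. With the 18 arrays weighted by their quality, limma called 13 components higher and 4 lower in treated tumors and 8 higher and 3 lower in spontaneous tumors.

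The components called higher in both tumor groups were the adaptor Shc1, the exchange factor Sos2, the ERK kinase Map2k2, the ERK-activated kinase Rps6ka3, the JNK kinase Map2k4, the p38-activated kinases Mapkapk2 and Mapkapk3, and the phosphatase Dusp16. The phosphatase Dusp10 was the 1 component called lower in both. Of all genes, 16.3% were called higher and 11.3% lower in both. The comparisons share the same 5 control arrays, so these calls are not independent of each other. Changes were modest at the probe sets taken for the genes. There, 0 of 32 components passed a log2 fold change of 1 in treated tumors, and 1 (Mapkapk3) did in spontaneous tumors. Among all genes, 14.8% and 14.3% passed it. Dimmer probe sets passed it for Shc1 in treated (1.23) and spontaneous tumors (1.47). In spontaneous tumors those of Araf (-1.31), Dusp10 (-1.21) and Mapkapk3 (1.08) did too.

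**Figure D1:**
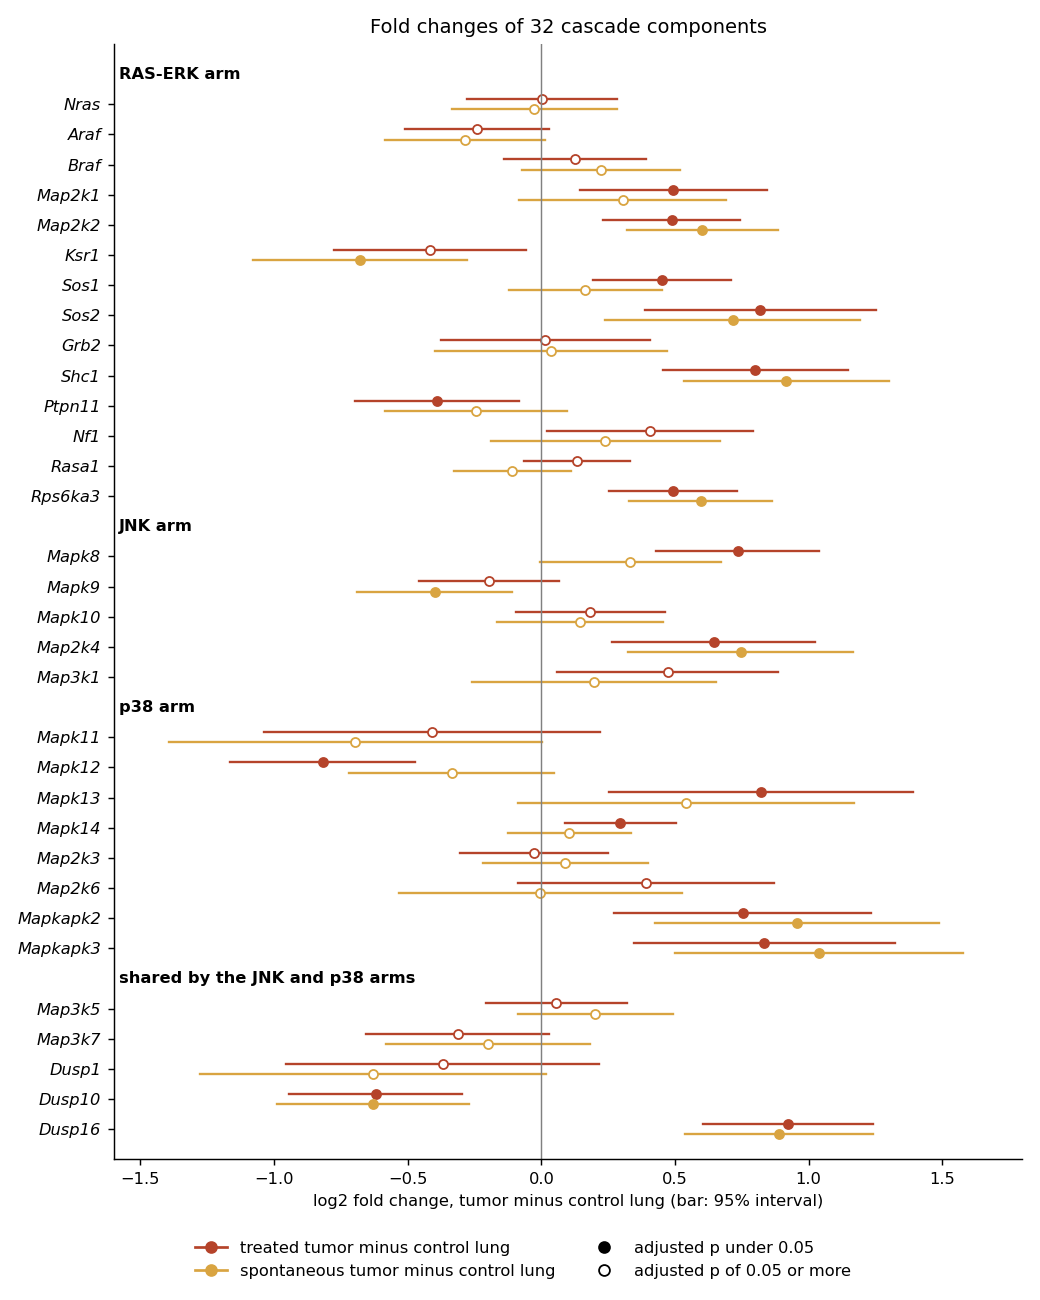
Log2 fold change (x axis) of each of the 32 components (y axis, grouped by arm), treated tumor minus control lung in red and spontaneous tumor minus control lung in ochre, with 95% intervals. Filled points passed an adjusted p of 0.05 in limma. Within each arm some components lie right of 0 and others left of it, from -0.82 for Mapk12 to 1.04 for Mapkapk3.

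At the entry of the ERK arm, Shc1 rose in both tumor groups, with the lowest adjusted p of the arm in each. This adaptor binds activated receptor tyrosine kinases and passes the signal on to Grb2. Shc1 read 10.21, 10.65 and 11.11 (lowest, median, highest) on treated tumor arrays, 10.89, 10.87, 10.63 and 10.68 on spontaneous tumor arrays and 9.96, 10.03, 9.77, 9.71 and 9.78 on control arrays. Every tumor array lay above every control array. The log2 fold change was 0.80 ± 0.16 (adjusted p = 0.00119) in treated tumors and 0.92 ± 0.18 (adjusted p = 0.00126) in spontaneous tumors, or 1.74-fold and 1.89-fold. A second Shc1 probe set rose by 1.23 ± 0.20 and 1.47 ± 0.22. Grb2, which brings SOS to the membrane, had 0.01 ± 0.18 and 0.04 ± 0.20 and passed no test.

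Shc1 has more than one annotated start, and its shorter and longer protein forms come from different starts, so the 250 bases before each of the 2 starts of the RefSeq promoter table (GRCm38.p6, mouse chromosome 3, plus strand) are shown. Capitals mark matches to any of 5 motifs searched on both strands: the cyclic AMP response element (CRE) TGACGTCA, its short form TGACG, the AP-1 element TGANTCA, the ETS element CCGGAAG and the SP1 element GGGGCGGGG.
Shc1 start 1, chr3:89418301-89418550: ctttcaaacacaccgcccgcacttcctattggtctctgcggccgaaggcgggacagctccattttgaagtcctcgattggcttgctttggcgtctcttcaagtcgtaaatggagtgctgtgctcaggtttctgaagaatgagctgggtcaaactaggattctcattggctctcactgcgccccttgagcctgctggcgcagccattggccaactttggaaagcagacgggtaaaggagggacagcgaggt
Shc1 start 2, chr3:89421371-89421620: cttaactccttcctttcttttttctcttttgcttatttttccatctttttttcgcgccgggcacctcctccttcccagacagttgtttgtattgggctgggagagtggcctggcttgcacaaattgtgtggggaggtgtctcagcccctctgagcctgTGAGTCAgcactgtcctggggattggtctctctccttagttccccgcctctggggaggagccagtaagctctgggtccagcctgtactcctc
The window before start 2 held 1 AP-1 match, TGAGTCA, 92 to 86 bases before the start, and the window before start 1 held none. AP-1 is the dimer of JUN and FOS family proteins on which JNK and ERK signals converge. An AP-1 match was held by 6.75% of 32851 mouse promoter windows of the same length, and by 3 of the 31 components with a window (Ksr1, Map2k6 and Shc1). An ETS match was held by 6.91% of all windows and by 3 components (Nf1, Ptpn11 and Rasa1). In these counts a component held a match if any of its windows did. The shares are of single windows, so count and share are not directly comparable. A match describes these letters and not a site in use.

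The SOS proteins load RAS with GTP. Sos2 read 9.40, 9.50 and 10.05 (lowest, median, highest) on treated tumor arrays, 10.13, 8.76, 9.45 and 9.74 on spontaneous tumor arrays and 8.70, 8.78, 9.07, 8.82 and 8.64 on control arrays. All 6 treated tumors and 3 of 4 spontaneous tumors lay above the control lungs, and spontaneous tumor 2 lay within their range. Sos2 rose by 0.82 ± 0.20 (adjusted p = 0.00473) in treated and by 0.72 ± 0.22 (adjusted p = 0.0229) in spontaneous tumors. The call in spontaneous tumors was lost without spontaneous tumor 1 (adjusted p = 0.0855) or 4 (0.0681). Sos1 rose in treated tumors (0.45 ± 0.12, adjusted p = 0.00830), where it read 8.65, 8.89 and 9.17 (lowest, median, highest), against 8.62, 8.34, 8.10, 8.65 and 8.49 in control lung. With the mean of all its probe sets Sos1 had 0.26 in treated tumors and was not called (adjusted p = 0.0928). The highest control value equalled the lowest treated value to 2 decimals. In spontaneous tumors Sos1 had 0.16 ± 0.13 (adjusted p = 0.376), and the difference between the tumor groups, 0.29 ± 0.13, did not pass (adjusted p = 0.563).

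Ptpn11 encodes the phosphatase SHP2, which promotes RAS activation downstream of receptors. It fell in treated tumors (-0.39 ± 0.14, adjusted p = 0.0440), at 10.10, 10.76 and 10.88 (lowest, median, highest), against 10.99, 10.99, 11.10, 11.07 and 11.11 in control lung. No treated tumor reached the lowest control lung, although treated tumor 5 lay far below the others. The call was fragile, since leaving out any of 9 single arrays (each of the 5 control arrays, treated tumor 2, 4 or 5, or spontaneous tumor 4) gave an adjusted p of 0.0542 to 0.0835. In spontaneous tumors Ptpn11 had -0.24 ± 0.16 (adjusted p = 0.261).

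The RAS switch and its brakes showed no call. Nras, the RAS gene measured here, averaged 10.45 ± 0.23 in treated tumors (n = 6), 10.42 ± 0.23 in spontaneous tumors (n = 4) and 10.45 ± 0.17 in control lung (SD, n = 5). Its log2 fold change was 0.00 with a 95% interval of -0.28 to 0.28 in treated tumors, and its 3 probe sets ranged from -0.03 to 0.04 over both comparisons. Nf1 and Rasa1 encode GTPase-activating proteins that return RAS to its inactive form. Nf1 had 0.41 ± 0.18 in treated tumors (adjusted p = 0.0897), a value called without treated tumor 5 (0.52, adjusted p = 0.0231). Rasa1 had 0.13 ± 0.09, but 2 of its 3 probe sets, those with the lower means, were called higher in treated tumors at 0.33 ± 0.10 and 0.56 ± 0.11, and so was the mean of the 3, at 0.34.

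Of the RAF kinases, which RAS recruits to start the cascade, Araf had -0.24 ± 0.13 in treated and -0.29 ± 0.14 in spontaneous tumors and Braf had 0.12 ± 0.12 and 0.22 ± 0.14, with no call. Of the 9 Braf probe sets, 2 dimmer ones were called higher in spontaneous tumors (0.38 ± 0.13 and 0.55 ± 0.17), and none was called in treated tumors. Every treated tumor array read Araf below every control array, at 8.87 to 9.24 against 9.28 to 9.46. The 2 dimmest of 5 Araf probe sets were called lower in each tumor group, at -0.93 and -0.55 in treated and -1.31 and -0.85 in spontaneous tumors. The mean of the 5 was called lower in both (-0.37 and -0.51), as was the brightest after quantile normalization (-0.37 and -0.39).

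One level down, among the kinases that phosphorylate ERK, Map2k2 rose in both tumor groups and Map2k1 in treated tumors. Map2k2 (MEK2) read 9.33, 9.56 and 9.91 (lowest, median, highest) on treated tumor arrays, 9.81, 9.88, 9.75 and 9.39 on spontaneous tumor arrays and 8.93, 9.13, 9.07, 9.26 and 9.13 on control arrays, with no overlap between tumor and control. It rose by 0.49 ± 0.12 (adjusted p = 0.00458) in treated and by 0.60 ± 0.13 (adjusted p = 0.00283) in spontaneous tumors. Its second, dimmer probe set had 0.29 ± 0.18 and 0.30 ± 0.19, with no call. Map2k1 (MEK1) rose in treated tumors by 0.49 ± 0.16 (adjusted p = 0.0261), with 9.89 to 10.44 in treated tumors and 9.29 to 10.06 in control lung. That call was lost without control lung 1 or 4 or treated tumor 3 or 6 (adjusted p = 0.0528 to 0.0773), and after quantile normalization (0.37, adjusted p = 0.0811). In spontaneous tumors Map2k1 had 0.30 ± 0.18 (adjusted p = 0.218).

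Ksr1 is a scaffold that holds RAF, MEK and ERK together. It read 7.08, 7.17 and 7.70 (lowest, median, highest) on treated tumor arrays, 7.03, 7.31, 6.94 and 6.79 on spontaneous tumor arrays and 7.80, 7.23, 8.25, 7.72 and 7.47 on control arrays. Treated tumors overlapped with control lung 2 and 6, and spontaneous tumors with control lung 2. Ksr1 fell in spontaneous tumors (-0.68 ± 0.19, adjusted p = 0.0117) and had -0.42 ± 0.17 (adjusted p = 0.0632) in treated tumors, where its other 2 probe sets were called lower. Rps6ka3 encodes RSK2, a kinase that ERK activates. Rps6ka3 read 10.24, 10.45 and 10.75 (lowest, median, highest) on treated tumor arrays, 10.49, 10.50, 10.83 and 10.45 on spontaneous tumor arrays and 9.89, 10.04, 9.94, 9.93 and 10.05 on control arrays. Every tumor array exceeded every control array, with a rise of 0.49 ± 0.11 (adjusted p = 0.00285) in treated and 0.60 ± 0.12 (adjusted p = 0.00201) in spontaneous tumors. Across the RAS-ERK arm, 6 of 14 components rose and 1 fell in treated tumors, and 4 rose and 1 fell in spontaneous tumors. The shares called, 50.0% in treated and 35.7% in spontaneous tumors, stand beside 38.7% and 33.0% of all genes.

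**Figure D2:**
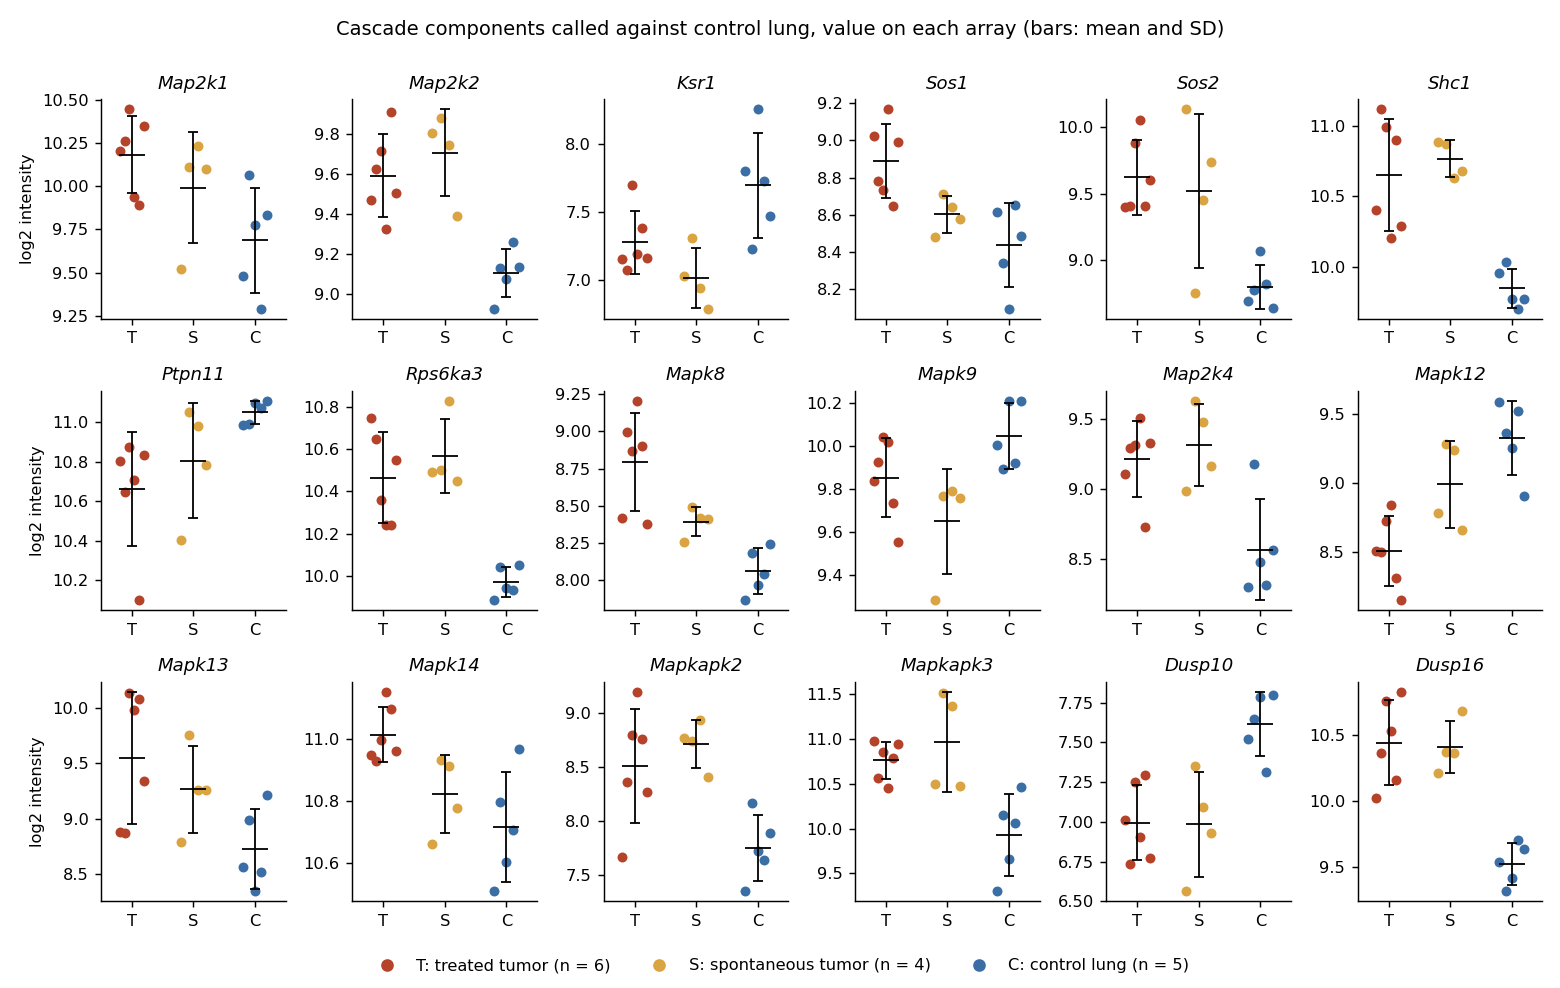
Log2 intensity (y axis) of the 18 components called against control lung in at least 1 tumor group, on each of 15 arrays (points), with group mean and SD (bars), for treated tumor (T), spontaneous tumor (S) and control lung (C). For Shc1, Map2k2, Rps6ka3 and Dusp16 all tumor arrays lie above all control arrays, while for Map2k4 control lung 2, at 9.18, lies among the tumors.

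In the JNK arm, the kinase Map2k4, which phosphorylates JNK and in some settings p38, rose in both tumor groups. Map2k4 read 8.73, 9.30 and 9.51 (lowest, median, highest) on treated tumor arrays, 8.99, 9.63, 9.48 and 9.16 on spontaneous tumor arrays and 8.30, 9.18, 8.48, 8.31 and 8.57 on control arrays. Control lung 2 lay within the tumor range and the other 4 control lungs did not. The change was 0.64 ± 0.18 (adjusted p = 0.00971) in treated and 0.75 ± 0.20 (adjusted p = 0.00928) in spontaneous tumors, and a second, dimmer probe set had 0.32 ± 0.16 and 0.34 ± 0.18 with no call. Map3k1, a kinase upstream of Map2k4, had 0.47 ± 0.19 (adjusted p = 0.0662) in treated and 0.20 ± 0.21 (adjusted p = 0.516) in spontaneous tumors, where spontaneous tumor 1 and 4 read 10.04 and 10.07 and spontaneous tumor 2 and 3 read 8.94 and 9.33.

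Of the genes of JNK itself, Mapk8 was called higher in treated tumors and Mapk9 lower in spontaneous tumors. Mapk8 (JNK1) read 8.38, 8.88 and 9.21 (lowest, median, highest) on treated tumor arrays, 8.26, 8.49, 8.42 and 8.41 on spontaneous tumor arrays and 7.87, 8.18, 7.97, 8.04 and 8.25 on control arrays. Tumor and control arrays did not overlap in either comparison, yet only treated tumors passed the test (0.73 ± 0.14, adjusted p = 0.000851, against 0.33 ± 0.16 (adjusted p = 0.120) in spontaneous tumors). The difference between the tumor groups was 0.40 ± 0.15 with a 95% interval of 0.08 to 0.73 and an adjusted p of 0.466. The second brightest Mapk8 probe set was called higher in both tumor groups, at 0.95 ± 0.15 and 0.49 ± 0.17, and the 3 dimmest in neither.

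Mapk9 (JNK2) was called lower in spontaneous tumors (-0.40 ± 0.14, adjusted p = 0.0351), at 9.28, 9.77, 9.79 and 9.76, against 10.01, 9.89, 10.21, 9.92 and 10.21 in control lung. Its value rests in part on spontaneous tumor 1: without that array the change was -0.28 (adjusted p = 0.123), and without control lung 1, 3 or 6 the adjusted p was 0.0548 to 0.0805. The dimmest of its 3 probe sets was called the other way, higher by 0.47 ± 0.13 in treated and 0.41 ± 0.14 in spontaneous tumors, so the direction of Mapk9 depends on the probe set, and the mean of the 3 had -0.01 in spontaneous tumors (adjusted p = 0.933). Mapk10 (JNK3), a form found mainly in brain and heart, had 0.18 ± 0.13 and 0.14 ± 0.15, with no call in any of 3 probe sets.

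Mapk14 (p38α), the form found in most cells, was called higher in treated tumors by its brightest probe set (0.30 ± 0.10, adjusted p = 0.0248), at 10.93, 10.98 and 11.15 (lowest, median, highest), against 10.51, 10.80, 10.60, 10.71 and 10.97 in control lung. The other probe sets of the gene did not follow. Of the 6, 2 were called lower in treated tumors (-0.47 ± 0.13 and -0.33 ± 0.13) and 4 were called lower in spontaneous tumors (-0.66 to -0.44). The mean of the 6 had -0.13 in treated (adjusted p = 0.230) and -0.33 in spontaneous tumors (adjusted p = 0.0132). The direction of Mapk14 is therefore not settled by these arrays, and without control lung 1 or 3 the rise in treated tumors was not called (adjusted p = 0.0764 and 0.0647).

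In treated tumors the p38 forms with narrower expression were called in opposite directions. Mapk12 (p38γ), best known from muscle, read 8.15, 8.51 and 8.84 (lowest, median, highest) on treated tumor arrays, 8.79, 9.28, 9.24 and 8.66 on spontaneous tumor arrays and 9.58, 9.36, 9.25, 9.52 and 8.91 on control arrays. Every treated tumor lay below every control lung, and spontaneous tumors overlapped with both. Mapk12 fell in treated tumors (-0.82 ± 0.16, adjusted p = 0.000976) and had -0.34 ± 0.18 (adjusted p = 0.169) in spontaneous tumors. A second, much dimmer Mapk12 probe set had -0.19 ± 0.18 in treated and 0.25 ± 0.20 in spontaneous tumors, with no call. In a direct comparison Mapk12 was 0.48 ± 0.17 log2 units lower in treated than in spontaneous tumors, the component with the lowest adjusted p there, which was 0.434. Smooth muscle markers fell in 8 of 8 genes in each tumor group (mean level 6.91 to 7.80 in treated tumors, 7.05 to 7.76 in spontaneous tumors and 8.84 to 10.5 in control lung). Of the 8 cardiac muscle markers, 3 were called lower and 1 higher in each tumor group. The part of either list in the fall of Mapk12 was not tested.

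Mapk13 (p38δ), a form with high expression in epithelia, rose in treated tumors (0.82 ± 0.27, adjusted p = 0.0232). It read 8.87, 9.66 and 10.13 (lowest, median, highest) on treated tumor arrays, 8.79, 9.76, 9.26 and 9.26 on spontaneous tumor arrays and 8.57, 8.99, 8.34, 8.52 and 9.21 on control arrays, with overlap between all groups. Treated tumor 3, 4 and 5 read 10.13, 9.98 and 10.09, and treated tumor 1 and 2 read 8.88 and 8.87, which is below control lung 2 and 6. The call was lost without control lung 1, 3 or 4 or treated tumor 3 or 5 (adjusted p = 0.0506 to 0.0642). Mapk11 (p38β) had -0.41 ± 0.30 (adjusted p = 0.302) in treated and -0.70 ± 0.33 (adjusted p = 0.117) in spontaneous tumors, with no call. All 4 spontaneous tumors lay below all control lungs. Mapk11 spread over 6.13 to 7.90 in treated and 5.64 to 7.32 in spontaneous tumors but only over 7.33 to 7.45 in control lung.

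The kinases that activate p38, Map2k3 and Map2k6, showed no call. Map2k3 had -0.03 ± 0.13 in treated and 0.09 ± 0.14 in spontaneous tumors, and Map2k6 had 0.39 ± 0.22 and -0.00 ± 0.25.

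Of the kinases that MAP kinases activate, Mapkapk2 and Mapkapk3, both targets of p38, rose in both tumor groups. Of 5 others measured (relatives of RSK and MK2 and the MNK kinases), limma called 0 in either tumor group, with 1 at an unadjusted p under 0.05 in each and median log2 fold changes of -0.06 in treated and -0.19 in spontaneous tumors. Mapkapk2 (MK2) carries the signal of p38 to factors that control the stability of cytokine mRNAs, and Mapkapk3 is its close relative. Mapkapk2 read 7.67, 8.56 and 9.19 (lowest, median, highest) on treated tumor arrays, 8.77, 8.74, 8.93 and 8.41 on spontaneous tumor arrays and 7.35, 8.17, 7.72, 7.64 and 7.89 on control arrays. The 4 spontaneous tumors lay above all control lungs, while treated tumor 1 lay among them. The rise was 0.75 ± 0.23 (adjusted p = 0.0152) in treated and 0.96 ± 0.25 (adjusted p = 0.00851) in spontaneous tumors.

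Mapkapk3 read 10.46, 10.82 and 10.98 (lowest, median, highest) on treated tumor arrays, 10.50, 11.52, 11.37 and 10.48 on spontaneous tumor arrays and 9.30, 10.15, 9.66, 10.06 and 10.47 on control arrays. Only treated tumor 4, at 10.46, fell below the highest control lung, control lung 6 at 10.47. Mapkapk3 rose by 0.83 ± 0.23 (adjusted p = 0.00904) in treated and by 1.04 ± 0.25 (adjusted p = 0.00560) in spontaneous tumors, 1.78-fold and 2.05-fold, and its second probe set gave 0.87 ± 0.20 and 1.08 ± 0.22. The highest values among the control lungs were those of control lung 2 and 6 for Mapkapk2 (8.17 and 7.89), Mapkapk3 (10.15 and 10.47), Mapk13 (8.99 and 9.21) and Map2k4 (9.18 and 8.57). The same held for Rps6ka3 (10.04 and 10.05), Mapk8 (8.18 and 8.25), Map2k1 (10.06 and 9.83) and Mapk14 (10.80 and 10.97). It did not hold for Map2k2, Sos1, Sos2, Shc1 and Dusp16, the other components called higher. Control lung 2 and 6 also had the highest levels of several marker lists among the control lungs. Macrophage markers read 10.3 and 11.0 there, against 7.87 to 8.34 in the other 3. Alveolar type 2 markers read 12.6 and 12.5 (against 11.9 to 12.1), cell division markers 7.59 and 7.05 (against 5.62 to 6.12), and T and NK cell markers 8.51 and 8.27 (against 6.82 to 7.44), and the fibroblast and neutrophil lists were highest there too. Of the 9 macrophage markers, 3 were called higher and 1 lower in treated tumors and 2 higher in spontaneous tumors. Of the 7 cell division markers, 3 rose in treated and 7 in spontaneous tumors. The part of these lists in the rises of the components was not tested. In the p38 arm as a whole, 4 of 8 components rose and 1 fell in treated tumors, and 2 rose in spontaneous tumors. These shares, 62.5% and 25.0%, stand beside 38.7% and 33.0% of all genes.

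**Figure D3:**
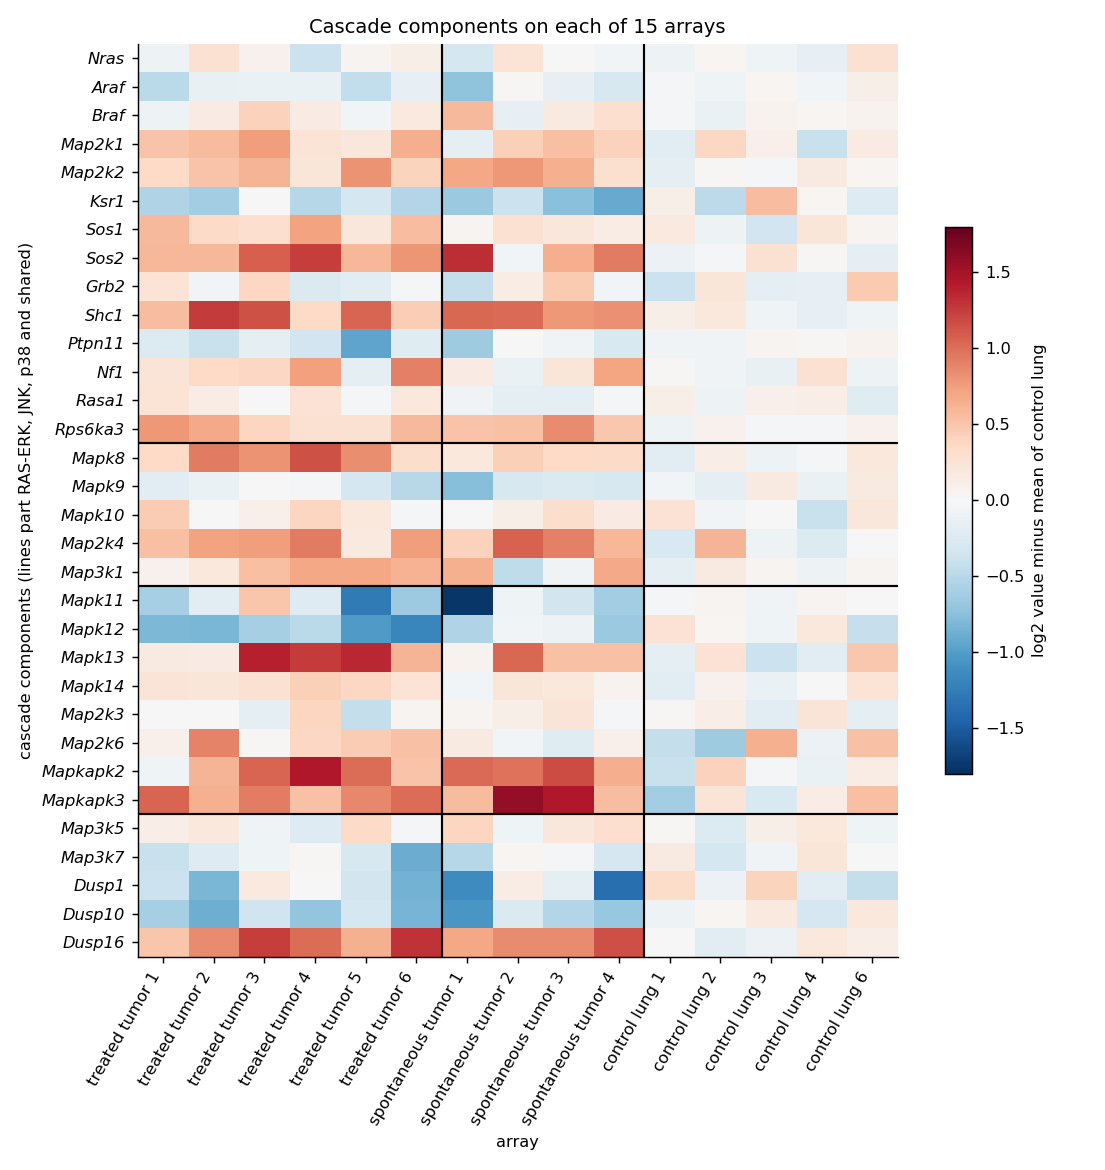
Log2 value minus the mean of control lung (colour) for 32 components (rows, parted by lines into RAS-ERK, JNK, p38 and shared) on 15 arrays (columns: treated tumors, spontaneous tumors, control lungs). The components above the mean of control lung on all 10 tumor arrays are Map2k2, Sos1, Shc1, Rps6ka3, Mapk8, Map2k4, Mapk13, Mapkapk3 and Dusp16, while Mapk11 and Mapk13 vary within the treated block.

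The components that serve both stress arms are Map3k5 (ASK1) and Map3k7 (TAK1), which start the cascades after oxidative stress and cytokines, and the phosphatases Dusp1, Dusp10 and Dusp16, which end them. Map3k5 had 0.06 ± 0.12 in treated and 0.20 ± 0.14 in spontaneous tumors. Map3k7 had -0.31 ± 0.16 and -0.20 ± 0.18, and none of its 6 probe sets was called. Of the 3 phosphatases, Dusp16 rose and Dusp10 fell in both tumor groups, and Dusp1 was not called.

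Since Dusp16 and Dusp10 act on the same kinases but were called in opposite directions, the 250 bases before their starts are shown, with those of Dusp1 beside them (RefSeq, GRCm38.p6), with motif matches in capitals as above. Dusp16 lies on the minus strand of chromosome 6, Dusp10 on the plus strand of chromosome 1 and Dusp1 on the minus strand of chromosome 17.
Dusp16, chr6:134792629-134792878: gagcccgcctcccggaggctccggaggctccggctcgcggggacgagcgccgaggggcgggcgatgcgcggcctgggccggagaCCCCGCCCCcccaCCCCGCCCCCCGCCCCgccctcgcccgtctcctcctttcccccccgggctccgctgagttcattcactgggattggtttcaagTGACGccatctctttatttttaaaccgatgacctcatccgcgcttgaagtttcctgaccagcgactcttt
Dusp10, chr1:184034131-184034380: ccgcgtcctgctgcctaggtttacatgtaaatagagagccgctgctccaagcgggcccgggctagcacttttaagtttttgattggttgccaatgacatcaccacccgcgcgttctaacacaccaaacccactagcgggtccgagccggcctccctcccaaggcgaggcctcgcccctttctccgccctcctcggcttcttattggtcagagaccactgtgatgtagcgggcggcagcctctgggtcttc
Dusp1, chr17:26508473-26508722: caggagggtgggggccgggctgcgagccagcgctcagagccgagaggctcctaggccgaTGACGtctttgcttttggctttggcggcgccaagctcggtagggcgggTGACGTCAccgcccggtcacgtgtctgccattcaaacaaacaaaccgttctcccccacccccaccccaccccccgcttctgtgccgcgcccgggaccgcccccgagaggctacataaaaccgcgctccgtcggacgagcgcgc
Dusp1, an immediate early gene that many stimuli switch on within minutes, held the full CRE 143 to 136 bases before its start and a further TGACG at 191 to 187. Of all promoter windows 1.55% held the full CRE and 17.8% the short form (which lies within every full CRE). Among the 31 matched components, each counted if any of its windows matched, 4 held the full CRE (Braf, Dusp1, Mapk10 and Ptpn11) and 13 the short form. Dusp16 held 1 TGACG at 70 to 66 bases and 3 SP1 matches, the last 2 of which overlap, in a motif that 10.4% of all promoter windows held. Dusp10 held no match to the 5 motifs in this window.

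Dusp16, a phosphatase with a preference for JNK and p38, had the lowest adjusted p of all 32 components against control lung. Dusp16 read 10.02, 10.45 and 10.83 (lowest, median, highest) on treated tumor arrays, 10.21, 10.38, 10.37 and 10.69 on spontaneous tumor arrays and 9.54, 9.31, 9.41, 9.71 and 9.64 on control arrays. The lowest tumor array stood above the highest control array. It rose by 0.92 ± 0.15 (adjusted p = 0.000189) in treated and by 0.89 ± 0.17 (adjusted p = 0.000837) in spontaneous tumors, or 1.90-fold and 1.85-fold. A much dimmer second probe set had 0.15 ± 0.26 and -0.13 ± 0.29, and with the mean of both the rise in spontaneous tumors, 0.38, was not called.

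Dusp10, which acts on the same kinases, went the other way. Dusp10 read 6.73, 6.96 and 7.29 (lowest, median, highest) on treated tumor arrays, 6.56, 7.35, 7.09 and 6.93 on spontaneous tumor arrays and 7.52, 7.65, 7.79, 7.32 and 7.80 on control arrays. All treated tumors lay below all control lungs, and spontaneous tumor 2 alone reached the lowest control value. Dusp10 fell by 0.62 ± 0.15 in treated (adjusted p = 0.00454) and by 0.63 ± 0.17 in spontaneous tumors (adjusted p = 0.00982), and a second probe set fell by 0.88 ± 0.17 and by 1.21 ± 0.19. Dusp1 read 11.06, 11.55 and 12.08 (lowest, median, highest) on treated tumor arrays, 10.77, 12.04, 11.74 and 10.56 on spontaneous tumor arrays and 12.24, 11.80, 12.30, 11.72 and 11.47 on control arrays. Its spread within groups was wide, and its changes of -0.37 ± 0.27 (adjusted p = 0.315) in treated and -0.63 ± 0.30 (adjusted p = 0.126) in spontaneous tumors were not called. Without spontaneous tumor 2 the change in spontaneous tumors was -0.88 (adjusted p = 0.0352).

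Other genes of the same cascades were counted from lists of upstream kinases, regulators, scaffolds, phosphatases and nuclear targets. Of 104 measured, 17 were called higher and 23 lower in treated tumors, and 14 higher and 20 lower in spontaneous tumors. The shares called, 38.5% and 32.7%, were near those of all genes, 38.7% and 33.0%. Their median log2 fold change was -0.04 and -0.07. In treated tumors the changes of largest size named here were those of Dusp4, Rasgrp3 and Rasgrp2. Dusp4, a nuclear phosphatase that ERK signalling induces, was higher by 2.88 ± 0.18 in treated and 2.94 ± 0.20 in spontaneous tumors (adjusted p = 3.2e-08 and 1.51e-07). It read 10.38 to 11.10 in treated tumors, 10.40 to 11.15 in spontaneous tumors and 7.44 to 8.14 in control lung. Dusp5, a nuclear phosphatase specific for ERK, was higher by 1.36 ± 0.26 in treated and 0.85 ± 0.28 in spontaneous tumors (adjusted p = 0.000677 and 0.0325). Of the 9 phosphatases in this list, these 2 rose in each tumor group, and 2 fell in treated tumors. The ones that fell, named after their values were seen, were Dusp8 (-1.11 ± 0.26) and Dusp7 (-0.80 ± 0.23), with -0.66 ± 0.29 and -0.42 ± 0.25 and no call in spontaneous tumors.

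Among 10 RAS GTPase-activating proteins and their partners, 3 rose and 2 fell in treated tumors and 3 rose and 1 fell in spontaneous tumors, where 23.7% and 20.1% of all genes were called higher. Those that rose were Spred1, Spred2 and Spred3 (Spred3 is named after its values were seen), members of a family known for bringing neurofibromin to RAS. Spred1 was higher by 2.04 ± 0.16 and 1.88 ± 0.18 and Spred2 by 1.44 ± 0.11 and 1.32 ± 0.12 in treated and spontaneous tumors. Rasal2, a GTPase-activating protein, fell in both, with log2 fold changes of -1.82 ± 0.17 in treated and -2.10 ± 0.19 in spontaneous tumors. Rasal3, of the same family and also named after its values were seen, fell in treated tumors, at -1.01 ± 0.28, and had -0.56 ± 0.31 in spontaneous tumors. Of the adaptors, Shc4, a relative of Shc1, had 1.72 ± 0.25 and 1.84 ± 0.28, while Grap, a relative of Grb2 in lymphoid cells, had -1.66 ± 0.22 and -1.71 ± 0.24. T and NK cell markers read 5.54 to 6.47 in treated tumors, 5.98 to 7.46 in spontaneous tumors and 6.82 to 8.51 in control lung, and their part in the change of Grap was not tested.

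Of the 10 RAS-like GTPases and non-SOS exchange factors, 7 fell in treated and 6 in spontaneous tumors and all 10 had a log2 fold change below 0 in both, where 15% and 12.9% of all genes were called lower. The median of the 10 was -0.96 in treated and -0.78 in spontaneous tumors. Rasgrp3, an exchange factor of endothelial and B cells, had -2.55 ± 0.25 in treated and -2.13 ± 0.28 in spontaneous tumors, and Rasgrp2, the exchange factor of platelets, had -2.47 ± 0.21 and -2.31 ± 0.23. Mras, a RAS relative, had -1.42 ± 0.18 and -1.56 ± 0.20. Endothelial markers, with 10 of 10 and 9 of 10 genes lower, moved with these genes. B and plasma cell markers did too, with 5 of 7 and 4 of 7 lower. The part of either list was not tested. Of the upstream kinases, Map3k9 had 0.76 ± 0.14 in treated and 1.05 ± 0.15 in spontaneous tumors, and Map3k6 had -1.81 ± 0.35 and -1.75 ± 0.39. The nuclear targets had 1 of 16 higher and 3 lower in treated tumors, and 1 higher and 4 lower in spontaneous tumors, or 25.0% and 31.2% called beside 38.7% and 33.0% of all genes.

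Treated tumors were set directly against spontaneous tumors to ask whether tumors of exposed mice differ from spontaneous ones in these cascades. No component was called by limma (0 of 32, with 4 at an unadjusted p under 0.05), in a comparison in which 0.055% of all genes were called. At an unadjusted limma p under 0.05 there were 1564 of all 18193 genes. Among the components, differences in log2 value ran from -0.48 for Mapk12 to 0.40 for Mapk8, with SEs of 0.10 to 0.31. The 4 with a 95% interval that left out 0 were Mapk12, Mapk8, Sos1 (0.01 to 0.56) and Rasa1 (0.03 to 0.45). Rasa1 was the 1 component whose values did not overlap between the tumor groups (1.63% of all genes), at 9.82, 10.00 and 10.10 (lowest, median, highest) in treated tumors, against 9.78, 9.68, 9.67 and 9.80 in spontaneous tumors. All 32 intervals, those of the probe sets taken for the genes, lay within 1 log2 unit of 0, and 17 within 0.5. A difference of more than 2-fold thus lay outside every one of these intervals, while smaller differences lay within some of them. A call in treated tumors that is missing in spontaneous tumors, as for Map2k1, Sos1, Mapk8, Mapk13, Mapk14, Ptpn11 and Mapk12, or the reverse, as for Ksr1 and Mapk9, therefore does not show a difference between them.

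**Figure D4:**
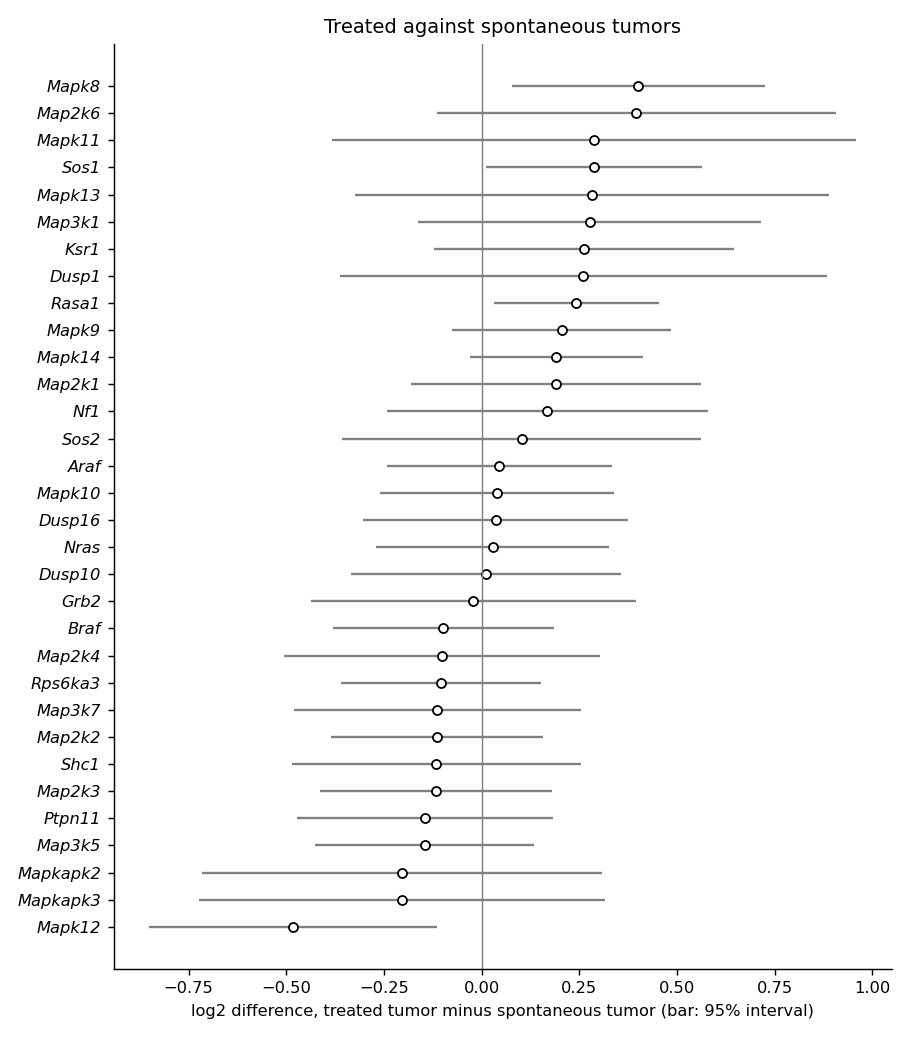
Log2 difference, treated tumor minus spontaneous tumor (x axis), with 95% interval, for 32 components (y axis, ordered by the difference). Points run from -0.48 (Mapk12) to 0.40 (Mapk8), and none passed an adjusted p of 0.05.

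Within groups, the median SD of a component was 0.25 in treated tumors, 0.25 in spontaneous tumors and 0.17 in control lung, and that of all genes was 0.25, 0.24 and 0.21. The widest spread was that of Mapk13 in treated tumors (SD 0.59), Mapk11 in spontaneous tumors (0.74) and Map2k6 in control lung (0.57). Spontaneous tumor 1 was the lowest of the 10 tumor arrays for 10 of the 32 components, more than any other array, and the highest for 3. Spontaneous tumor 2 and treated tumor 4 were each the highest for 7.

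The 32 components had 90 probe sets with their symbol alone, and 26 had more than 1. Tested singly, 22 of the 90 were called higher and 11 lower in treated tumors, beside 22.8% and 14.8% of all single probe sets, and 16 and 11 in spontaneous tumors, beside 18.8% and 12.7%. Of the called components with several probe sets, 7 of 12 had the same call in another probe set in treated tumors (Dusp10, Mapk8, Mapkapk3, Ptpn11, Rps6ka3, Shc1 and Sos1) and 5 of 9 in spontaneous tumors (Dusp10, Ksr1, Mapkapk3, Rps6ka3 and Shc1). Within 1 comparison, probe sets of the same component were called in opposite directions for Mapk14 (treated tumors) and Mapk9 (spontaneous tumors) and for none of the others.

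**Figure D5:**
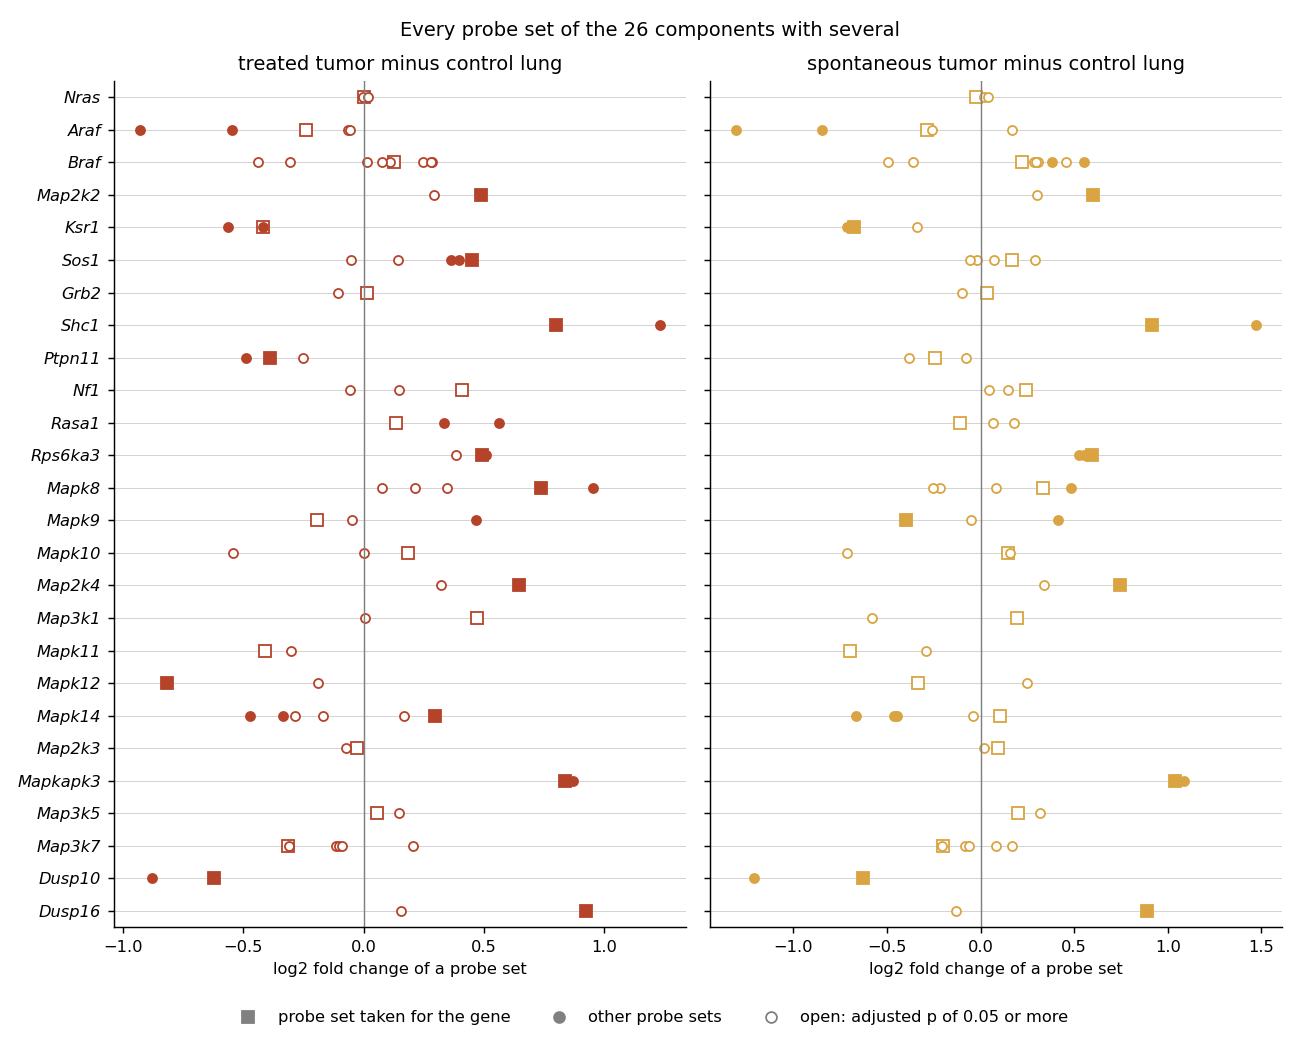
Log2 fold change (x axis) of every probe set of the 26 components with several (y axis), treated tumor minus control lung on the left and spontaneous tumor minus control lung on the right. Squares are the probe sets taken for the genes and filled symbols passed an adjusted p of 0.05. Shc1, Mapkapk3 and Dusp10 lie on 1 side of 0 throughout, while Mapk14 and Mapk9 have filled symbols on opposite sides.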

How the data were processed

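RNA (100 ng a sample) of 18 samples was hybridized to Affymetrix mouse arrays. The deposited values are log2 intensities per probe set, made by the authors with RMA per the submitters' processing notes, and the version is not given in the sources used here. RMA was run before deposit, so the arrays that stood apart may have shaped the values of the others. Of 45101 probe sets, 34945 carry 1 gene symbol in the platform annotation, 932 carry several, 9160 carry none and 64 are controls. Genes took the probe set with the highest mean over all 18 arrays, those left out of the fits included, which gave 18193 genes. With the highest mean over the 15 arrays kept, limma called 7065 genes in treated and 6012 in spontaneous tumors, against 7043 and 5995.

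Fits used limma 3.58.1 in R 4.3.3 on the log2 values, with 3 group means, empirical Bayes variances and Benjamini-Hochberg adjustment over all 18193 genes (34945 probe sets where tested singly). Every adjusted p printed is limma's, at a threshold of 0.05. Plus-minus values on log2 fold changes are standard errors, and intervals are at the 95% level. The number of arrays limits the precision. The components, the other lists and the arrays to leave out were chosen with earlier results of these data known. All listed components could be named. Of the other cascade genes, up to 5 per comparison and direction were named, those called, without overlap and with the largest change, and their values in the other comparison stand beside them. Replicate numbers were checked for pairing, and deviations from the group means correlated at -0.15 to 0.30 over 13 pairs with the same number, against -0.35 to 0.37 over the other 61 pairs. No 2 arrays held the same values. Promoter sequences are from RefSeq (GRCm38.p6), read as the 250 bases before each start. The fits were tested on simulated data. Alternatives were all 18 arrays with and without array weights, quantile normalization, median centring, a filter on low genes, other probe set rules, other variance models, fits of single pairs of groups, a replicate block, and each array left out. Tables and figures were made with Python 3.11.15, numpy 2.4.6, pandas 2.3.3 and matplotlib 3.10.9.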

Additional observations from a re-analysis of the deposited data

Results flagged for a closer look

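Single samples stood far from the rest of their group in 3 of 96 sets of values (32 components in 3 groups), where chance alone sets apart about 1 in 20. Ptpn11 read 10.10 in treated tumor 5, the lowest of 6, while the other treated tumors read 10.65 to 10.88. Rps6ka3 read 10.83 in spontaneous tumor 3, the highest of 4, while the others read 10.45 to 10.50. Mapk9 read 9.28 in spontaneous tumor 1, the lowest of 4, while the others read 9.76 to 9.79. The calls of Ptpn11 and Mapk9 were lost without these arrays, and that of Rps6ka3 was kept without each single array.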

How the results depend on the processing

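Leaving out each array in turn gave 10 to 14 components higher and 2 to 4 lower in treated tumors (6064 to 7188 genes in all). In spontaneous tumors it gave 7 to 8 higher and 2 to 5 lower (4996 to 6155 genes), with 5 lower without spontaneous tumor 2. Of the calls against control lung, 12 of 16 in treated and 9 of 11 in spontaneous tumors held without each single array. Between the tumor groups no component was called without any 1 array, and 0 to 28 genes were, with 28 without treated tumor 1 and 0 without treated tumor 6. With all 18 arrays, 0 components were higher and 0 lower in either comparison with control lung. All genes called were then 1353 in treated and 746 in spontaneous tumors and 0 between them (limma; 1159 at an unadjusted p under 0.05). In that fit the changes in spontaneous tumors were reversed for Rps6ka3 (-0.26), Dusp10 (0.20) and Dusp16 (-0.45), and the 3 arrays added are those that stood apart. Averaging all probe sets per gene left 5 components lower in treated tumors and reversed Mapk14, at -0.13 in treated and -0.33 in spontaneous tumors. Quantile normalization also gave 5 lower in treated tumors. Leaving out genes with a mean under the median gave 4648 genes in treated tumors, since fewer were tested, and 1 component lower in spontaneous tumors. Ksr1 and Dusp10, with means of 7.35 and 7.20 under the median of 7.64, were left out by this filter and so not tested. Genes called between the tumor groups were 36 with array weights on all 18 arrays, 5 with quantile normalization, 5 with trend and robust variances, and 0 with a fit of these groups alone (1274 at an unadjusted p under 0.05). With the replicate block they were 0 (1520 at an unadjusted p under 0.05), and 12 components were higher and 2 lower in treated tumors and 8 higher and 3 lower in spontaneous tumors, but the samples share only a number. Causes were not tested.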
